A study of Caenorhabditis elegans with 6 samples.

Results

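The cuticle collagens rol-6, sqt-1, sqt-2, sqt-3, bli-1, bli-2, lon-3, dpy-5, dpy-13 and dpy-17 are 10 genes that were named for the body shape of their mutants and do not belong to the furrow collagens. They were chosen by symbol, and all 10 were found among the 45343 features of the table. The RNA was that of whole Caenorhabditis elegans larvae harvested at mid-L3, partway through the third of the larval stages. There were 3 libraries from blmp-1(tm548), which carry a mutant allele of the zinc-finger transcription factor gene blmp-1, and 3 from the wild-type (WT) strain N2 Bristol. All animals were synchronized by bleach and raised on standard agar plates. The samples are described as biological replicates, but whether each came from its own culture is not stated, so p-values measure the spread between these samples, which may be technical.

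The cuticle of the worm is a layered collagen matrix that the epidermis secretes under the old one before each molt. A cuticle collagen has short runs of glycine repeats flanked by cysteines. It is hydroxylated on its prolines, assembled into trimers, cut by proteases at its ends and crosslinked through tyrosines. Collagen genes are transcribed in pulses once per molting cycle, and mutations in them give animals that are short (dumpy, dpy), long (lon), twisted so that they roll (rol, sqt) or blistered (bli).

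The values are FPKM, the fragments of a gene per kilobase of its transcript, scaled to the fragments mapped in the library, so levels are per length. Levels of the most abundant genes lay close together, and between such genes they are not read as differences in transcript amount. In this section replicates are always named in the order 1, 2, 3. Steps in the low values gave estimated depths of 7560000 to 8050000 reads per mutant library and 7590000 to 8140000 reads per WT library. The blmp-1 transcript was at 38.4 ± 1.74 FPKM in the mutant and 70.4 ± 5.23 FPKM in WT (SD, n = 3 each), which is a partial check of the labels because the part of the gene altered by the allele is not given. Markers of epidermis, intestine, body wall muscle, pharynx, neurons and germline were all above 0. The summed level of the 8 epidermal markers found was 442 to 449 FPKM in the mutant and 421 to 439 FPKM in WT. Markers of the adult stage (col-19 and the yolk genes, 7 in all) summed to 107 to 207 FPKM in the mutant. In WT they summed to 486, 656 and 158 FPKM, so that WT replicates 1 and 2 stood apart. An adult stage signal was thus present in libraries labelled L3.

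None of the 10 collagens passed the test of mutant against WT (limma fitted to log2(FPKM + 1), with p adjusted by Benjamini-Hochberg over 17058 features and called under 0.05), and 1, lon-3, had an unadjusted p under 0.05. Of all features tested, 6.4% were called, 3.34% as higher and 3.06% as lower, and 23% had an unadjusted p under 0.05. All 10 collagens reached the minimum mean of 1 FPKM and entered the test. Their median log2 difference, mutant minus WT, was -0.04, and that of all features tested was 0.00. The genes rol-6, sqt-1, sqt-2, sqt-3, dpy-5 and dpy-13 had nearly the same high level in every library, lon-3 was lower and bli-1 and bli-2 were higher in mutant replicates 1 and 2, and dpy-17 was low in all. In whole larvae, fewer epidermal cells and less RNA per cell cannot be told apart.

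**Figure D1:**
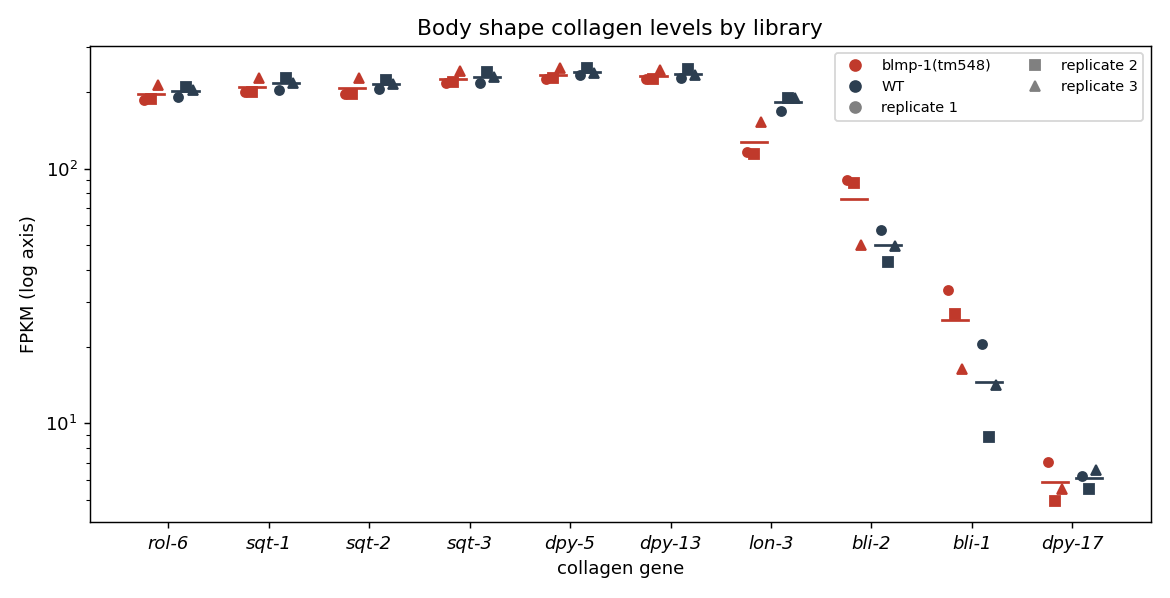
FPKM of the 10 body shape collagens on a log axis, with mutant libraries in red left of WT libraries in dark blue. Marker shapes give the replicate and bars the group means. Each of the first 6 genes lies between 186 and 249 FPKM in all libraries, while lon-3, bli-2 and bli-1 show mutant replicates 1 and 2 apart from WT.

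The levels spanned 39.5-fold, as the ratio of the highest to the lowest mean FPKM over the 6 libraries. The highest mean lay at a level that abundant genes shared, so this is a ratio of FPKM values and may differ from that of transcript amounts. In both groups dpy-5 came first, followed by dpy-13, sqt-3, sqt-1, sqt-2, rol-6, lon-3, bli-2, bli-1 and dpy-17. The ranges of neighbours overlapped among the first 6 of this order. From rol-6 downward each gene lay apart from the next in both groups. In WT rol-6 and lon-3 did so only narrowly, with the lowest rol-6 value at 190.4 FPKM and the highest lon-3 value at 189.8 FPKM.

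The collagens rol-6 and sqt-1 are closely related, and mutations in them give roller and dumpy shapes. In the mutant libraries rol-6 (T01B7.7) was at 186, 188 and 213 FPKM, and in WT at 190, 210 and 203 FPKM. The level of sqt-1 (B0491.2) was 199, 199 and 226 FPKM in the mutant and 204, 226 and 218 FPKM in WT. For each, the groups overlapped, mutant replicate 3 was the highest library, and mutant replicates 1 and 2 were the lowest. Likewise sqt-2 (C01B12.1), another gene whose mutants roll, was at 196, 196 and 227 FPKM in the mutant and 204, 223 and 216 FPKM in WT.

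The gene sqt-3 encodes a collagen that is needed from embryogenesis onward, and its C-terminal end is cut by the astacin protease DPY-31. Its transcript (F23H12.4) was at 216, 218 and 241 FPKM in the mutant and 216, 239 and 230 FPKM in WT. Loss of dpy-5 or mutation of dpy-13 gives short, stout animals. The dpy-5 transcript (F27C1.8) was at 225, 227 and 248 FPKM in the mutant and 232, 249 and 238 FPKM in WT, and dpy-13 (F30B5.1) was at 225, 224 and 245 FPKM in the mutant and 227, 246 and 232 FPKM in WT. Again the groups overlapped for each gene, and mutant replicate 3 and WT replicate 2 were the highest libraries.

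For these 6 genes the log2 differences, mutant minus WT, lay between -0.06 and -0.02, with standard errors of 0.0519 to 0.0696 and limma adjusted p of 0.666 to 0.879. The 95% intervals of the 6 differences together reached from -0.23 to 0.12 on the log2 scale. The direction of these small differences was not stable, as that of sqt-3 turned positive without mutant replicate 1 (log2 difference 0.01), without mutant replicate 2 (0.00015) or without WT replicate 2 (0.01), and that of dpy-13 without WT replicate 2 (0.01).

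**Figure D2:**
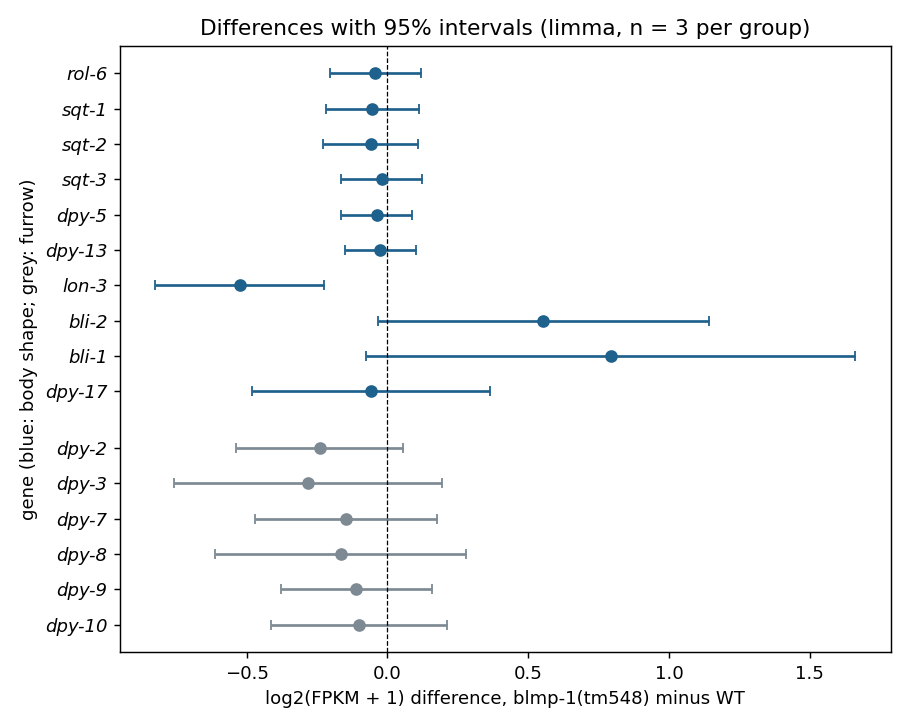
Log2 differences of FPKM plus 1, mutant minus WT, with 95% intervals from limma (n = 3 per group), for the 10 body shape collagens in blue and the 6 furrow collagens in grey. The interval of lon-3 lies below 0, from -0.82 to -0.22, before adjustment over all features, and those of the other 15 genes include 0.

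The level of these 6 collagens was shared by abundant transcripts of other kinds. Their means over the 6 libraries were 198 to 237 FPKM, and 98.8% to 99.8% of the 11710 tested protein-coding genes with at least 800 nt of exon had lower means. Of those genes, 212 had means from 180 to 260 FPKM and 7 had higher ones, so the distribution ended sharply just above the collagens. In reads, the level of the 6 was an estimated 1.56 to 1.87 reads per base. The muscle myosin gene unc-54, the paramyosin gene unc-15 and pdi-2, which encodes a subunit of the collagen prolyl hydroxylase, lay in the same range, at 196, 195 and 212 FPKM in the mutant and 195, 193 and 209 FPKM in WT as group means. Among the 212 genes, the middle 90% of log2 differences ran from -0.13 to 0.12, and 3.77% were called. Among the 7465 such genes with means of 20 to 180 FPKM, that range was -0.40 to 0.36, and 5.91% were called. Whether a difference in transcript amount would show in FPKM at this level was not tested, and the similar values of the 6 collagens are not read here as equal amounts of transcript.

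**Figure D3:**
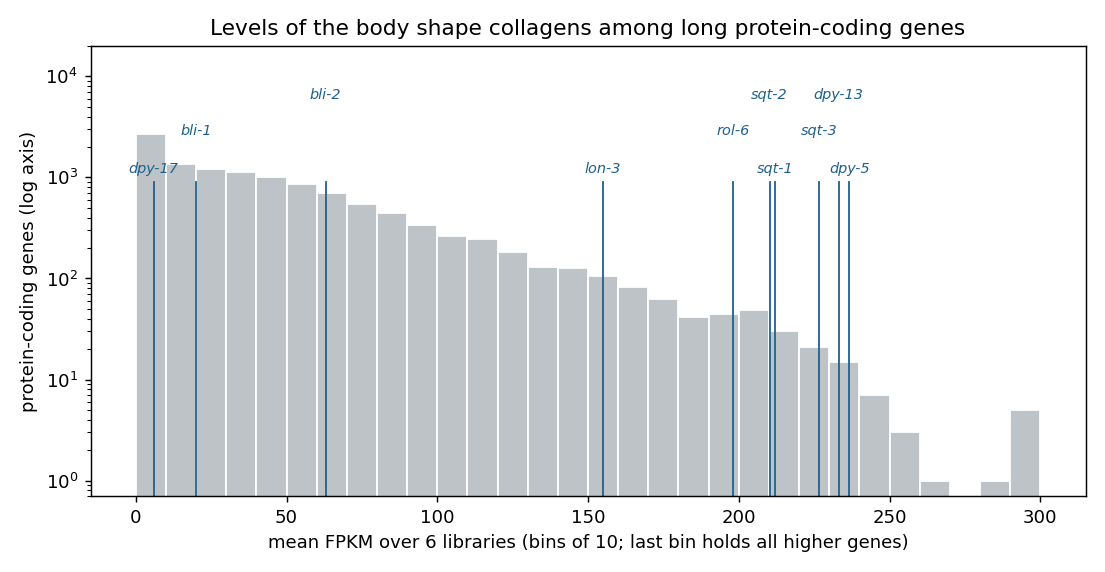
Number of tested protein-coding genes with at least 800 nt of exon, on a log axis, by mean FPKM over the 6 libraries in bins of 10. Blue lines mark the body shape collagens, of which 6 lie between 198 and 237 FPKM, close to the upper end of the distribution, where 7 of 11710 genes exceed 260 FPKM.

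The worth of 1 read in FPKM, read from the low values, differed between libraries. Relative to WT replicate 1 it was 1.011, 1.010 and 1.076 in the mutant and 1.072 and 1.019 in WT replicates 2 and 3. Mutant replicate 3 and WT replicate 2, in which 1 read was worth most, were also the highest libraries for all 6 collagens and for 156 of the 212 genes at that level. Dividing by this worth gives values in proportion to the estimated reads per base, so they are no longer corrected for depth. The coefficient of variation of the 6 collagens over all libraries was then 1.43% to 3.95%, against 4.26% to 6.39% in the deposited values. On this scale dpy-5 was at 223, 225 and 230.8 in the mutant and 231.9, 232 and 234 in WT. Its groups then lay narrowly apart, and the share of all features without overlap on this scale was not computed. Mutant replicates 1 and 2, but not mutant replicate 3, were also below every WT library for rol-6, sqt-1, sqt-2 and dpy-13. None of these genes was called in any of the 16 alternatives. The dpy-5 difference remained small, and with this scaling limma gave an adjusted p of 0.400 (log2 difference -0.04). Over all 16 alternatives the limma adjusted p of dpy-5 was 0.0975 to 0.950 and its log2 difference -0.105 to -0.0092.

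**Figure D4:**
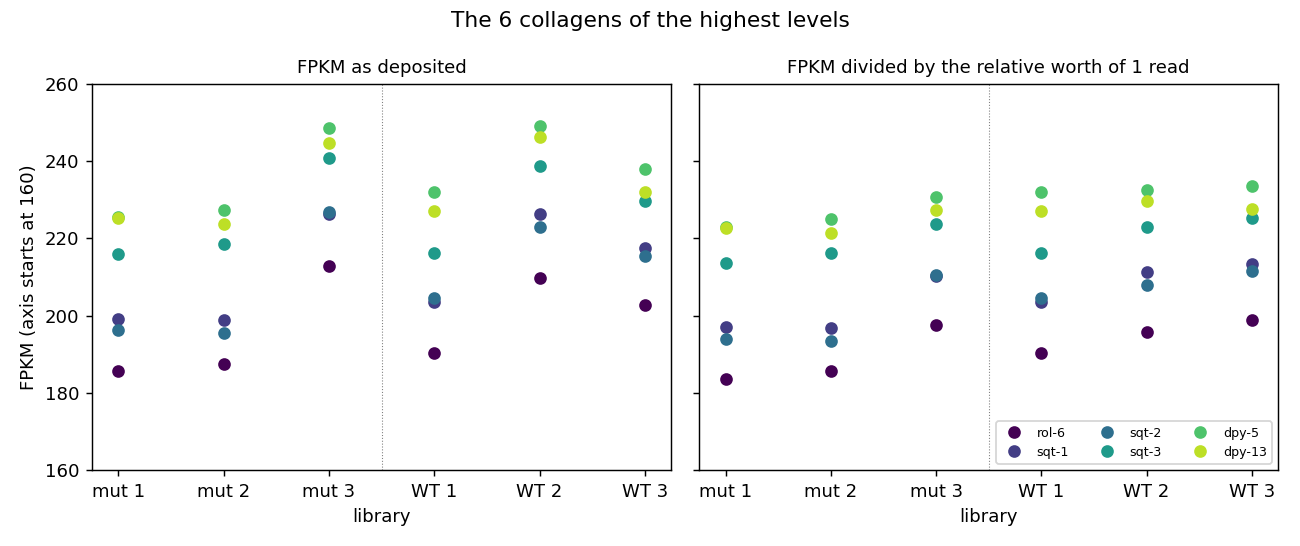
FPKM of rol-6, sqt-1, sqt-2, sqt-3, dpy-5 and dpy-13 in each library, as deposited on the left and divided by the relative worth of 1 read on the right, with mutant libraries left of WT. On the left mutant replicate 3 and WT replicate 2 are the highest libraries of each gene. On the right, where values are not corrected for depth, mutant replicate 3 is still the highest mutant library of each gene, by less. The coefficients of variation there are 1.43% to 3.95%.

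The gene lon-3 encodes a collagen that sets body length: its loss makes worms longer and extra copies make them shorter, and it acts downstream of the TGF-beta-like ligand DBL-1. Its transcript (ZK836.1) was at 116, 114 and 153 FPKM in the mutant and 168, 190 and 190 FPKM in WT. All mutant libraries lay below all WT libraries, with mutant replicate 3 nearest to WT. Of the 10 collagens, 1, lon-3, had groups that did not overlap. Of all features tested, 28.7% had groups without overlap, and 15% had the mutant as the lower one. The group means were 128 ± 21.96 FPKM in the mutant and 182 ± 12.8 FPKM in WT (SD, n = 3 each), and the difference of -0.52 on the log2 scale missed the threshold (SE 0.124, limma adjusted p = 0.0640). The difference passed in 4 of 16 alternative settings. These were quantile normalization (limma adjusted p = 0.0493), scaling by the worth of 1 read (0.0337), library weights (0.00389) and the fit without mutant replicate 3 (0.0127, log2 difference -0.66). These fits called 6.5%, 5.66%, 24.1% and 7.79% of all features, in the same order. Values scaled by the worth of 1 read are not corrected for depth. Over all 16 settings the log2 difference stayed between -0.66 and -0.45 and the adjusted p between 0.00389 and 0.351. The WT values of lon-3 reached the range of the 6 collagens above, where differences between libraries were small.

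The collagens BLI-1 and BLI-2 are needed for the struts that join the inner and outer layers of the adult cuticle, and their loss causes fluid-filled blisters. The bli-1 transcript (C09G5.6) was at 33.3, 26.8 and 16.4 FPKM in the mutant and 20.5, 8.83 and 14.1 FPKM in WT. That of bli-2 (F59E12.12) was at 90.0, 87.9 and 50.0 FPKM in the mutant and 57.2, 43.0 and 49.8 FPKM in WT. Mutant replicates 1 and 2 were above every WT library for both genes, and mutant replicate 3 was below WT replicate 1, so the groups overlapped. The order of the 6 libraries was the same for bli-1 and bli-2.

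For bli-1 the log2 difference was 0.79 (SE 0.358, 95% interval -0.08 to 1.66, limma adjusted p = 0.252), and for bli-2 it was 0.55 (SE 0.242, 95% interval -0.03 to 1.14, limma adjusted p = 0.239). Neither passed. Library weights were lowest for mutant replicate 3, at 0.439, and WT replicate 1, at 0.449, and highest for WT replicate 2, at 4.07. With these weights both genes passed, in a fit that called 24.1% of all features (limma adjusted p = 0.0174 and 0.0145, log2 differences 1.41 and 0.87). The fit without mutant replicate 3 called bli-2 (log2 difference 0.83, adjusted p = 0.0277) and not bli-1 (log2 difference 1.07, adjusted p = 0.153). Without WT replicate 2 the log2 difference of bli-1 was 0.50 (adjusted p = 0.507), and without mutant replicate 1 that of bli-2 was 0.41 (0.483). Over all 16 settings it was 0.50 to 1.41 for bli-1 (adjusted p 0.0174 to 0.526) and 0.41 to 0.87 for bli-2 (0.0145 to 0.609). Without mutant replicate 3, 2 of the 10 collagens were therefore called, bli-2 as higher and lon-3 as lower, in a fit that called 7.79% of all features. WT replicate 2, which had the highest summed level of adult stage markers, had the lowest levels of bli-1 and bli-2, and WT replicate 1, with the next highest summed level, had the highest WT levels of both. By the WBcel235 annotation 7 nt of bli-1 exons overlap the antisense gene dph-2, which was at 33.1 to 39.9 FPKM in the mutant and 36.2 to 37.4 FPKM in WT.

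The dpy-17 transcript (F54D8.1) encodes a collagen that acts together with SQT-3 in dumpy body shape. It was at 7.08, 4.98 and 5.54 FPKM in the mutant and 6.24, 5.51 and 6.58 FPKM in WT. The groups overlapped, with the highest and the lowest library both in the mutant. The log2 difference was -0.06 (SE 0.174, 95% interval -0.48 to 0.36, limma adjusted p = 0.879). An estimated 44.5 to 63.3 reads per library lay behind these values. The partner gene sqt-3 had group means of 225 FPKM in the mutant and 228 FPKM in WT.

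The members were also compared by profile, the log2 values of a gene centred on its mean over the 6 libraries, with 145 other tested cuticle collagens each. The root mean square difference from the nearest one was 0.0082 for rol-6 and sqt-1, which were nearest to each other, and 0.012 for sqt-2, whose nearest was sqt-1. For sqt-3 the nearest was dpy-4 (0.0126), and for dpy-5 and dpy-13 it was col-17 (0.0076 and 0.0068). These genes all lay at the common high level and share its library pattern. For bli-1 the nearest profile was bli-2 (0.253), and for bli-2 it was bli-6 (0.197), a further blister collagen, at 91.7, 86.1 and 64.7 FPKM in the mutant and 79.5, 55.6 and 51.1 FPKM in WT. The nearest to lon-3 was col-156 (0.0668), at 148, 139 and 182 FPKM in the mutant and 210, 219 and 210 FPKM in WT (log2 difference -0.46, limma adjusted p = 0.0529). No profile was close to dpy-17: its nearest, col-14, differed from it by 0.163, more than a flat line would (0.148).

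**Figure D5:**
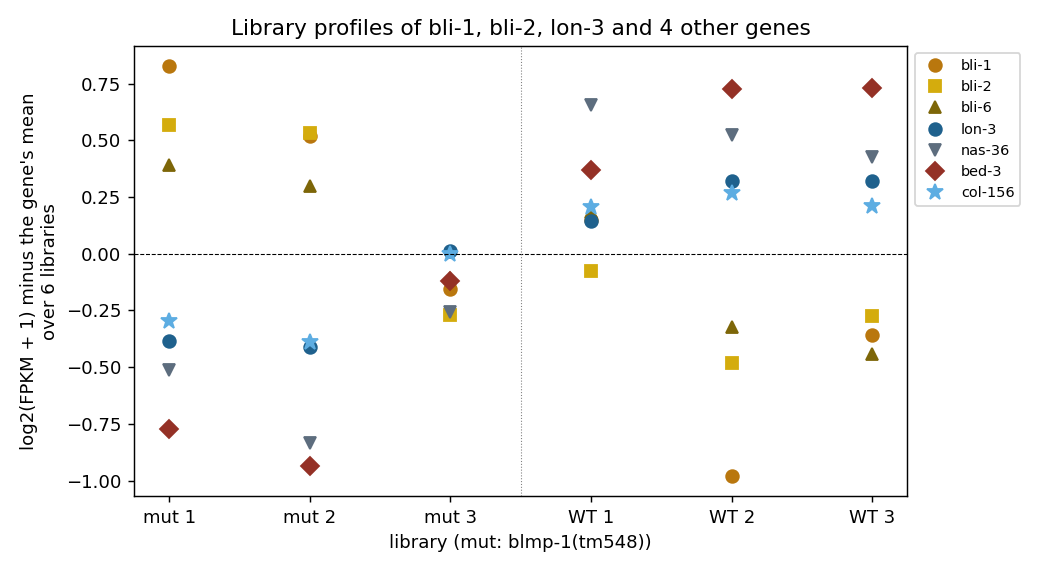
Log2 of FPKM plus 1 minus each gene's mean over the 6 libraries, mutant libraries left of WT. The blister collagens bli-1, bli-2 and bli-6 are highest in mutant replicates 1 and 2, where lon-3, col-156, nas-36 and bed-3 are lowest, and for lon-3, col-156, nas-36 and bed-3 mutant replicate 3 lies between the other mutant libraries and all WT libraries.

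Other collagens with body shape names gave 0 calls by limma among 4 tested of 5 (0 with an unadjusted p under 0.05, against 23% of all features tested). Those at the common high level, dpy-4 and rol-8, were at 215 ± 11.4 and 210 ± 15.8 FPKM in the mutant and 220 ± 9.62 and 213 ± 12.8 FPKM in WT (SD, n = 3 each). The fifth, dpy-14 (H27M09.4), had a mean under 1 FPKM and was not tested. It was at 1.46, 1.70 and 0.907 FPKM in the mutant and 0.241, 0.129 and 0.368 FPKM in WT, an estimated 1.03 to 14.4 reads per library. With no filter on low values it was called as higher (log2 difference 0.91, limma adjusted p = 0.0483), on these few reads.

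The furrow collagens dpy-2, dpy-3, dpy-7, dpy-8, dpy-9 and dpy-10 form the circumferential grooves of the cuticle and lay below the common high level, at group means of 112 to 138 FPKM in the mutant and 126 to 150 FPKM in WT. Their log2 differences were -0.28 to -0.10, all negative, with a median of -0.16 against -0.04 for the body shape collagens, and 0 of 6 were called by limma (0 with an unadjusted p under 0.05, against 23% of all features tested). For each gene the groups overlapped. WT replicate 1 lay within the mutant range, or below it for dpy-10. Among all tested cuticle collagens the median was -0.18 for the 100 with means under 180 FPKM. It was -0.04 for the 46 with means of at least 180 FPKM. The furrow collagens lie in the first of these level ranges, and 6 of the 10 body shape collagens in the second. The difference between furrow and body shape collagens was not tested.

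Of 14 genes for collagen processing and crosslinking, 1 fell, 0 rose and 13 did not pass, where 6.4% of all features tested were called. The gene that fell was bli-5 (F45G2.5), which encodes a protein with a Kunitz-type protease inhibitor domain and, like bli-1 and bli-2, gives blisters when mutated. It was at 36.97, 34.9 and 43.4 FPKM in the mutant and 74.1, 71.1 and 60.7 FPKM in WT, without overlap (log2 difference -0.82, SE 0.110, limma adjusted p = 0.0127). The bli-5 call was lost without mutant replicate 1 or WT replicate 2 (adjusted p = 0.0568 and 0.0627). The convertase gene bli-4, which cuts the N-terminal ends of collagens, was at 131 and 134 FPKM as mutant and WT means, and the protease gene dpy-31 at 70.1 and 66.1 FPKM. The prolyl hydroxylase subunit genes dpy-18 and phy-2 had log2 differences of -0.14 and -0.16 (limma adjusted p = 0.304 and 0.192).

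In the DBL-1 pathway, upstream of lon-3, 0 of 11 tested genes were called by limma, while 6 had an unadjusted p under 0.05, a mark that 23% of all features tested passed. Of the 6, dbl-1, sma-3, sma-4, sma-9 and drag-1 were higher in the mutant and sma-2 was lower. Among all 11, 8 differences were positive and 3 negative, with a median of 0.19. The ligand gene dbl-1 was at 41.3, 44.1 and 43.8 FPKM in the mutant and 34.0, 39.5 and 39.2 FPKM in WT (log2 difference 0.19, adjusted p = 0.206). The Smad genes sma-2 and sma-3 had log2 differences of -0.37 and 0.31 (limma adjusted p = 0.0573 and 0.0505). Both missed the threshold. Each passed in 4 of 16 alternative settings, with adjusted p of 0.00498 to 0.410 for sma-2 and 0.00580 to 0.180 for sma-3 over all of them. Among these, sma-2 passed without mutant replicate 3 (0.0329) and sma-3 without WT replicate 1 (0.0374). As with lon-3, the lowest values of sma-2 were those of mutant replicates 1 and 2.

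Collagen transcripts follow the molting cycle, so 14 genes of that cycle were set beside the collagens. Of these, 2 fell, 0 rose and 12 did not pass, where 3.06% of all features tested were called as lower and 3.34% as higher. The log2 differences of the 14 genes were negative for 11 and positive for 3 (nhr-23, fbn-1 and let-653). The nhr-23 transcript was at 62.4, 71.1 and 53.9 FPKM in the mutant and 43.8, 44.0 and 46.3 FPKM in WT (log2 difference 0.47, limma adjusted p = 0.0536). Without mutant replicate 3, 3 of the 14 rose and 3 fell, in a fit that called 7.79% of all features. The astacin protease gene nas-36 was at 33.8, 26.8 and 40.6 FPKM in the mutant and 77.1, 70.3 and 65.7 FPKM in WT (log2 difference -1.07, limma adjusted p = 0.0147). The zinc-finger factor gene bed-3 was at 26.9, 23.9 and 42.9 FPKM in the mutant and 60.7, 77.9 and 78.2 FPKM in WT (log2 difference -1.22, limma adjusted p = 0.0326). The call of nas-36 was lost without mutant replicate 1 or WT replicate 2 (adjusted p = 0.0605 and 0.0695), and that of bed-3 when any library but mutant replicate 3 was left out (0.0521 to 0.129). As for lon-3, mutant replicate 3 was the mutant library nearest to WT for both genes. The same held for bli-5, let-268, nas-37, che-14 and sma-2, so it was not particular to lon-3 or to this list. For blmp-1, vit-1, vit-3, vit-4 and vit-5, also lower without overlap, mutant replicate 1 was the nearest. The summed level of the 14 genes was 1229, 1256 and 1479 FPKM in the mutant and 1316, 1559 and 1634 FPKM in WT. Among the epidermal markers che-14 fell (8.56 ± 2.49 FPKM in the mutant and 28.1 ± 3.14 FPKM in WT, SD, n = 3 each, limma adjusted p = 0.0108, and 0.0568 without WT replicate 2), 0 rose and 7 did not pass. Here too the share of all features called as lower was 3.06%. Of the 8 epidermal markers tested, 5 had positive differences and 3 negative, and elt-6 just missed the threshold as higher (log2 difference 0.44, limma adjusted p = 0.0509). The part of the molting cycle in the differences of lon-3, bli-1 and bli-2 was not tested.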

How the data were processed

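The authors deposited 1 table of FPKM values in which rows are genes and columns are libraries. Per the submitters' processing notes, the tools were Cuffdiff, Cufflinks 2.0.2 and TopHat2 2.0.7. No source used here names the build, the annotation, the use of strand, or the treatment of duplicate reads and of reads that match several collagens, so no coordinates are printed. Columns were matched to samples by the strain and the sample letter of the labels, and 0 columns were left without a sample. Symbols and exon lengths came from WBcel235 tables through sequence names (44063 of 45343 features matched). Of the listed symbols, crm-1, elt-5 and opt-2 were not matched.

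FPKM are not counts, so the test ran on log2(FPKM + 1). Features whose mean reached 1 FPKM entered a limma fit (version 3.58.1, R 4.3.3) of the group alone, using a trended prior and Benjamini-Hochberg adjustment over 17058 features. The script was tested on simulated data. A fold on this scale understates changes of low genes. The relative worth of 1 read is the most common ratio between libraries among features with a mean under 1 FPKM, and 110 features of 1 transcript and 1000 to 4000 nt gave the absolute depth. Dividing FPKM by the relative worth removes their scaling to library depth. The depths are estimates, and no interval was built on them. The members and gene lists were chosen with earlier results of these data known. Named genes were all 10 members, blmp-1, the furrow collagens, called members of the lists, and each member's nearest collagen profile. Other list members were named after their values were seen. Alternatives were other pseudocounts, filters and scalings, library weights, a replicate block and leaving out libraries. Scaling by the worth of 1 read and leaving out WT replicates 1 and 2 together were chosen after seeing the data.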

Additional observations from a re-analysis of the deposited data

How the results depend on the processing

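Over 16 alternative settings, the number of body shape collagens called by limma was 0 in the fit as reported, 1 with quantile normalization, 1 with scaling by the worth of 1 read, 3 with library weights, and 0 to 2 when 1 library was left out (2 without mutant replicate 3, 0 without any other). The number of all features called was 1092, and 4117 with library weights, 369 to 1332 without 1 library, and 355 without both WT replicate 1 and WT replicate 2. In the other lists 4 genes were called, and 8 with a minimum mean of 5 FPKM, 33 with library weights, 0 to 9 without 1 library, and 0 without both WT replicates 1 and 2 (0 also without WT replicate 2 alone). The calls that moved with leaving out a library also had fewer samples. The log2 differences of sqt-3 (0.00848, 0.00015 and 0.0128 without mutant replicate 1, mutant replicate 2 and WT replicate 2), of dpy-13 (0.00885 without WT replicate 2) and of dpy-17 (0.0913 with library weights and 0.0345 without mutant replicate 2) turned positive, none past the threshold. Leaving out 1 library moved them between -0.0697 and 0.0128, between -0.0660 and 0.00885, and between -0.183 and 0.0345. Those of rol-6, sqt-1, sqt-2, dpy-5, lon-3, bli-1 and bli-2 kept their sign in all 16. For the moved counts the cause was not tested.

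The deviations of same-numbered libraries of the groups had correlations of 0.133, -0.0352 and 0.0697 for replicates 1, 2 and 3. These values do not settle whether same-numbered libraries were handled together. With the replicate block 929 features and 0 body shape collagens were called.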
